A study of Mus musculus with 24 samples.

Results

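Lungs of mice that breathed diesel exhaust while taking pirfenidone and having remote ischemic perconditioning (DE+PFD+RIC) were set against lungs of mice that only breathed the exhaust (DE). The libraries were picked by these group labels, 3 from each group, so 6 of the 24 libraries of the series. All were from male C57BL/6 mice labelled as 20 weeks old, whose interventions began at 8 weeks of age. DE+PFD+RIC mice had exhaust for 30 min a day on 5 days a week over about 8 weeks. They also took pirfenidone by mouth at 300 mg/kg a day on 6 days a week, in 0.5% carboxymethylcellulose, and had 3 cycles of 5 min of blocked and 5 min of restored blood flow in the left leg on 3 days a week for 4 weeks of the exposure. DE mice had the same exhaust with neither the drug nor the leg cycles. Brought in where a result needs them are DE+PFD (exhaust and drug, 3 libraries), DE+RIC (exhaust and leg cycles, 3 libraries) and C (healthy controls, 3 libraries). No group is labelled as given the carboxymethylcellulose without pirfenidone, so drug and vehicle cannot be told apart. The labels do not say which 3 animals of a group the libraries came from, or whether each was 1 animal, so the p-values measure the spread between these libraries.

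Pirfenidone is an oral antifibrotic drug used in human idiopathic pulmonary fibrosis, and in animal models it lowers the response to TGF-beta, the cytokine that drives fibroblasts to make collagen. Remote ischemic conditioning protects distant organs from injury through signals that travel by nerves and blood. Inhaled particles draw leukocytes into the lung, where T cells, B cells and dendritic cells can gather in lymphoid tissue along the airways and in the nodes of the mediastinum. Stromal cells of such tissue make the chemokines CCL19 and CCL21, which call in T cells and dendritic cells, and CXCL13, which calls in B cells.

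The 6 libraries held 12384143, 14625860 and 7756027 counts in DE+PFD+RIC, against 8885406, 6920161 and 5700391 in DE. DE+PFD+RIC libraries 1 and 2 carry a batch date in March and library 3 one in October, while the 3 DE libraries are all from October, so the batch term was estimated from the groups with libraries of more than 1 date, DE+PFD+RIC among them and DE not. DE+RIC 3 is the only library dated November, so the batch term fits it by itself. Fitted values of DE+RIC with that term therefore rest on DE+RIC 1 and 2. Lung markers were abundant in each library: Sftpc, the surfactant protein of alveolar type 2 cells, had 22720, 14240 and 17050 CPM (counts scaled by library size and composition) in DE+PFD+RIC, against 20300, 29600 and 27390 in DE. On the first principal component of the 24 libraries, with 28.5% of the variance, the DE+PFD+RIC libraries scored -4.7, -42.9 and -22.1, against 14.5, 22.4 and 14.0 in DE. RIC+DE+PFD 1, a March library of preconditioned mice that enters the fit through its batch and the spread, stood apart on it at 120.9 and had a limma quality weight of 0.0463. Several list medians below are also given without it. The weights of libraries 1, 2 and 3 were 0.272, 1.52 and 1.13 in DE+PFD+RIC, against 0.614, 1.12 and 3.17 in DE. The second component held 11.1%, and there DE 1 scored highest at 63.8, and the DE+PFD+RIC libraries scored -27.4, -19.0 and 2.3. Of the genes in the lists used here, 62 were too low to be tested, and 14 of these were listed at 0 in all 24 libraries, among them Itgam and Igkc, which lung cells use.

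Fold changes between the groups followed transcript length. In 3254 genes with the shortest exonic length (median 1334 bases) the median log2 fold change of DE+PFD+RIC minus DE was -0.40, and in the 3254 longest (median 9536.5 bases) it was 0.27. Spearman's rho between fold change and length was 0.474 across the 16269 genes with a known length (genes are not independent replicates). The trend of each library ran to long transcripts in DE+PFD+RIC, at rho 0.190, 0.458 and 0.294, against -0.266, -0.294 and -0.194 in DE. The DE+PFD+RIC library of October was on the same side as those of March. For some of the lists and single genes below, the value with each library's length trend removed is therefore given too. It is given for DE+PFD+RIC minus DE only.

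**Figure D1:**
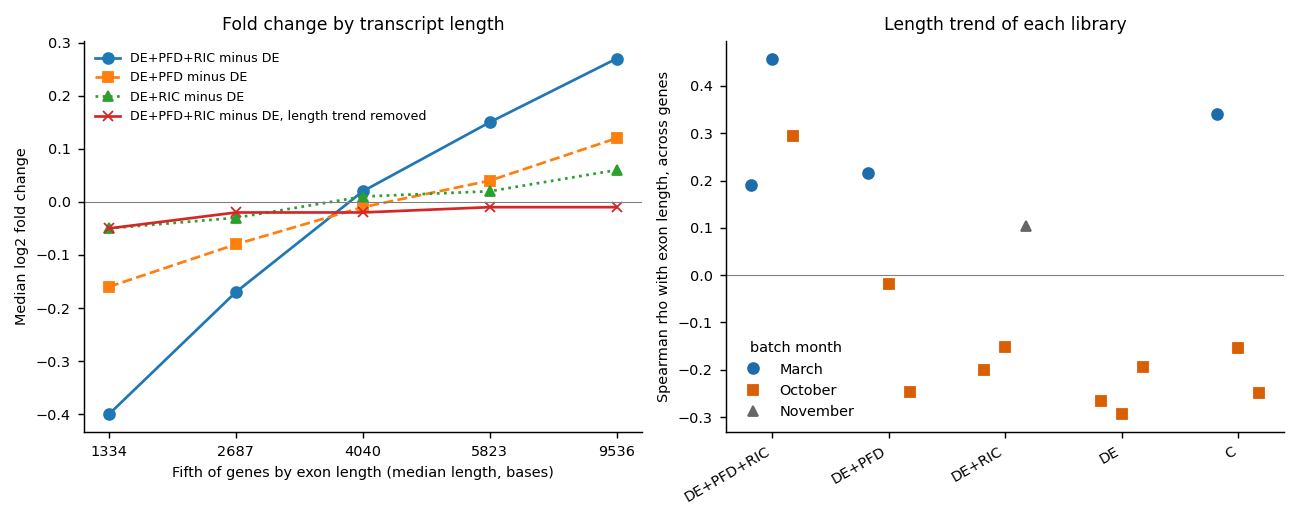
Left, median log2 fold change (y axis) in 5 groups of genes by exon length (x axis, median length in bases) for DE+PFD+RIC, DE+PFD and DE+RIC, each minus DE, and for DE+PFD+RIC minus DE with the length trend of each library removed. Right, Spearman's rho across genes between a library's deviation from the gene mean and exon length, 1 point per library, with symbols for the batch month. The line of DE+PFD+RIC minus DE runs from -0.40 to 0.27, and the DE+PFD+RIC libraries lie at 0.190 or above while the DE libraries lie at -0.194 or below.

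No gene passed the test between DE+PFD+RIC and DE. edgeR's quasi-likelihood test over all 24 libraries with a batch term called 0 of 17490 genes (0%) at a Benjamini-Hochberg adjusted p under 0.05, with a smallest adjusted p of 0.284. At an unadjusted p under 0.05, 849 genes lay higher (4.85%) and 751 lower (4.29%). DESeq2 on the same libraries, without edgeR's filter on low counts, called 14 of 41268 genes, 3 higher and 11 lower. Of these 14, 10 were among the 17490 genes, and the 3 higher ones were not. With library quality weights limma called 4, 3 higher and 1 lower. The values below are therefore descriptions unless a call is named, and the shares of 4.85% and 4.29% are the background for each count of list members at an unadjusted p under 0.05. The median log2 fold change over all genes tested was -0.01. DE+PFD+RIC and DE did not overlap in 15.4% of all genes tested with DE+PFD+RIC higher, and in 12.8% with it lower. These shares are the background wherever no overlap is stated below. Genes named from a list for their small p are more likely than others to show no overlap.

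Of the 53 gene lists described here, that of lymphoid tissue had the lowest median in DE+PFD+RIC minus DE. Of 13 tested genes of lymphoid tissue macrophages and stroma, 12 lay lower in DE+PFD+RIC, 8 of them at an unadjusted p under 0.05, with a median log2 fold change of -2.37 (-2.06 with the length trend removed). Over all genes tested 51.1% lay lower. The summed level of the list was 195, 206 and 175 CPM in DE+PFD+RIC, against 729, 241 and 446 in DE and 211, 199 and 183 in C. DE 1 and DE 3 stood high, while DE 2 lay near the DE+PFD+RIC and C libraries. In bulk lung, fewer cells of a type and less RNA per cell cannot be told apart.

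Macrophage genes of lymphoid tissue came first. Cd209b, a lectin of marginal zone and lymph node macrophages, had 2.33, 1.45 and 1.20 CPM in DE+PFD+RIC, against 80.05, 1.34 and 30.6 in DE and 1.12, 0.967 and 1.62 in C (log2 -4.53 ± 0.89, SE; edgeR adjusted p = 0.284). DE 1 and DE 3 were high and DE 2 fell within the DE+PFD+RIC range. Timd4, a receptor by which resident macrophages take up dying cells, had 1.12, 2.27 and 1.80 CPM in DE+PFD+RIC and 28.0, 2.09 and 17.4 CPM in DE (log2 -3.28 ± 0.65). Pla2g2d, a secreted phospholipase of lymphoid tissue dendritic cells and macrophages, had 1.90, 3.90 and 3.12 CPM in DE+PFD+RIC and 54.0, 4.48 and 28.6 CPM in DE (log2 -3.19 ± 0.61). For Pla2g2d the groups did not overlap, and for Timd4 DE 2 lay inside the DE+PFD+RIC range. The adjusted p was 0.284 for both, as for Cd209b. Dnase1l3, a secreted DNase of macrophages and dendritic cells, was lower by log2 -3.35 ± 0.77 and Stab2, which clears waste from blood in sinusoidal endothelium, by log2 -2.37 ± 0.55 (adjusted p = 0.529 for each). Csmd1, a membrane regulator of complement, was lower by log2 -2.51 ± 0.59 and Apol7c, an apolipoprotein L gene of dendritic cells, by log2 -2.96 ± 0.72.

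The chemokines of lymphoid stroma showed the same libraries high. Ccl19, made by stromal cells of T cell zones, had 0.345, 0.378 and 0.841 CPM in DE+PFD+RIC, against 24.3, 1.19 and 13.2 in DE (log2 -4.43 ± 0.94, adjusted p = 0.428). Ccl21a, made by lymphatic endothelium and the same stroma, had 67.6, 67.7 and 58.1 CPM in DE+PFD+RIC, against 333, 131 and 199 in DE and 76.9, 95.6 and 80.1 in C (log2 -1.91 ± 0.37, adjusted p = 0.284). For Ccl21a even DE 2 lay above all 3 DE+PFD+RIC libraries, though the mouse genome holds near-identical copies of this gene and its counts are uncertain. Cxcl13, the chemokine of B cell follicles, had 7.94, 3.40 and 3.36 CPM in DE+PFD+RIC and 34.3, 5.08 and 15.5 CPM in DE (log2 -2.43 ± 0.55, adjusted p = 0.529), and DE 2 lay inside the DE+PFD+RIC range. Il22ra2, a soluble receptor that binds IL-22 and is made by dendritic cells, had 0.690, 0.629 and 0.360 CPM in DE+PFD+RIC and 8.65, 0.896 and 9.49 CPM in DE (log2 -3.57 ± 0.72, adjusted p = 0.284).

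The promoters of 3 of these genes are shown because they share a short motif, GGGANNTTT, the core of a form described for RelB dimers at mouse Cxcl13 (RelB is the NF-kappaB subunit that acts below the lymphotoxin receptor in lymphoid stroma). Of the 12 lower genes that were named by rank, 8 had a promoter of 250 bases before to 50 bases after the start in RefSeq (GRCm38.p6). The motif, searched on both strands, was in 3 of these 8 and in 4.79% of 32851 mouse promoters. Its letters were chosen with these promoters in view, after the general kappaB consensus had been found in 0 of the 8 (4.51% of all promoters hold it). As the form was described at Cxcl13, the match there was given in advance. The 3 of 8 beside the 4.79% is therefore not a test. Capitals mark the match, which lies on the other strand in Pla2g2d (chr4:138775485-138775784, + strand) and on the strand printed in Ccl19 (chr4:42756316-42756615, - strand) and Cxcl13 (chr5:95956689-95956988, + strand). A match is a description of these letters and not of a binding site.
Pla2g2d: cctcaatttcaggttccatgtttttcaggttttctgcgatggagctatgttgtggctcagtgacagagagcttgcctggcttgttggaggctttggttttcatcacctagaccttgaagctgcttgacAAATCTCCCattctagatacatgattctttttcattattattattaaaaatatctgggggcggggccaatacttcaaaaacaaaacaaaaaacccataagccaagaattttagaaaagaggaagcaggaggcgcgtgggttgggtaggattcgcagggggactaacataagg
Ccl19: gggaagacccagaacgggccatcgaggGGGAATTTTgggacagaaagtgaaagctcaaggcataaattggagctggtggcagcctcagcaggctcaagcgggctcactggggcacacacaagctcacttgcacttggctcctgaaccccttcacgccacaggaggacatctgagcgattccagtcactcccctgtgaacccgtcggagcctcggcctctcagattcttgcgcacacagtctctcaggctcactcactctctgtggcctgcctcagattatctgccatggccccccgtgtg
Cxcl13: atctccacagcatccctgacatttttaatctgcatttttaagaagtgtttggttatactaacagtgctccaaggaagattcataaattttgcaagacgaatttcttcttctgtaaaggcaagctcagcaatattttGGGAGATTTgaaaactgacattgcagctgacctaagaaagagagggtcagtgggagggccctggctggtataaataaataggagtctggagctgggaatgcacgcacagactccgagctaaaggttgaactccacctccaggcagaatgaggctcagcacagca

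**Figure D2:**
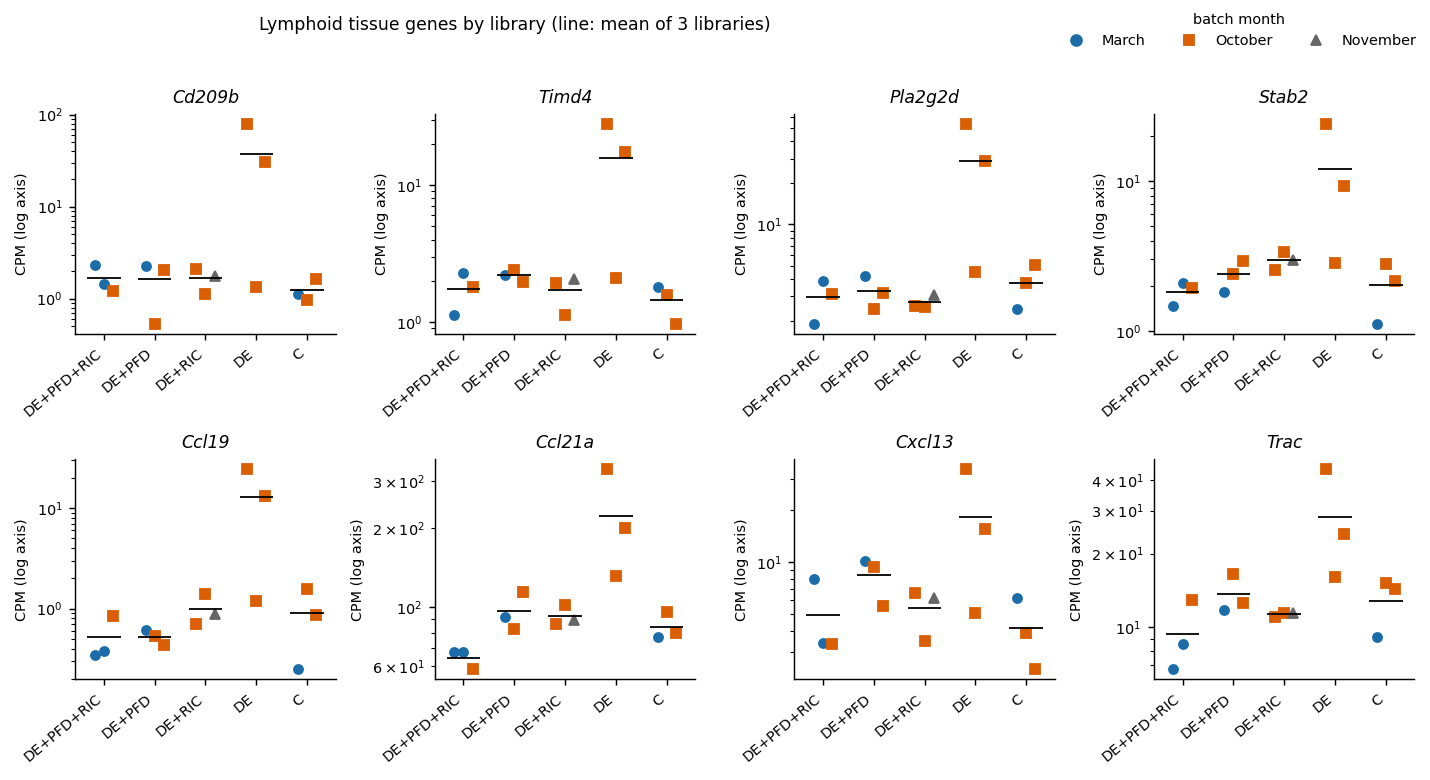
Level of 8 lymphoid tissue genes (y axis, CPM on a log scale) in the libraries of DE+PFD+RIC, DE+PFD, DE+RIC, DE and C (x axis), 1 point per library with symbols for the batch month and a line at the mean of 3. Cd209b reached 80.05 and 30.6 CPM in DE libraries 1 and 3 and was between 0.535 and 2.59 CPM in the libraries of all other groups of the series.

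The pattern of DE 1 and DE 3 held across the 12 lower genes. In 11 of the 12, both libraries lay above the highest of the 21 libraries outside DE, while DE 2 lay at or below that highest library in all 12. These counts only describe the 12 genes, which were named by a difference from the same DE libraries. Their shares over all genes tested were not taken. The 6 libraries did not overlap between the groups in 7 of the 12 (12.8% of all genes tested lay lower with no overlap), which only describes them, since they were named by this same difference. Leaving DE 2 out, edgeR called 19 genes, all lower, and these held all 12. Leaving DE 1 out it called 0, with a smallest adjusted p of 0.724, and the median of the lymphoid tissue list was then -1.50, against -2.83 without DE 2. DESeq2 called 9 of the 12, edgeR without the batch term 8, and limma with quality weights 1 (Ccl21a). In October alone, where DE+PFD+RIC has 1 library that is assumed to vary like the other groups, the list median was -2.48 and 0 of the 12 were called.

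Lymphocyte genes lay on the same side with smaller differences. Of 25 T cell genes, 24 lay lower in DE+PFD+RIC and 15 did so at an unadjusted p under 0.05, with a median of -0.97 (-0.94 with the length trend removed). The T cell receptor chain gene Trac had 6.73, 8.56 and 13.0 CPM in DE+PFD+RIC, against 44.2, 16.1 and 24.1 in DE and 9.11, 15.1 and 14.3 in C (log2 -1.39 ± 0.33, adjusted p = 0.529), and Trbc2 had 11.9, 9.94 and 20.1 CPM in DE+PFD+RIC and 77.9, 30.9 and 32.2 CPM in DE (log2 -1.56 ± 0.39). For both genes the groups did not overlap, and the lowest values were in the March libraries DE+PFD+RIC 1 and 2. Without DE 1 the T cell median was -0.48, and in October alone it was -0.75.

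B cell and antibody genes followed. All 19 B cell genes lay lower, 6 of them at an unadjusted p under 0.05, with a median of -0.83, but the median was -0.34 without DE 1 and -0.41 in October alone. Bank1, a scaffold of B cell receptor signalling, had 7.76, 14.7 and 33.8 CPM in DE+PFD+RIC and 86.2, 37.2 and 37.3 CPM in DE, and Ebf1, a transcription factor of the B lineage that fibroblasts also use, had 26.1, 17.2 and 29.2 CPM in DE+PFD+RIC and 89.6, 37.2 and 44.6 CPM in DE. DE+PFD+RIC 3, of October, lay closest to DE for both. Among 16 plasma cell and immunoglobulin constant genes 14 lay lower, with a median of -1.06, and -0.15 without DE 1 and -0.67 in October alone. Ighg1, the constant region of IgG1, had 2.16, 5.73 and 8.05 CPM in DE+PFD+RIC and 219.9, 10.0 and 21.4 CPM in DE (log2 -3.52 ± 1.02). DE 1 lay far above the other 5 libraries, and reads of immunoglobulin genes can be split between similar copies.

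Cytotoxic and dendritic cell genes were mixed. Of 20 NK and cytotoxic genes 15 lay lower and 3 did so at an unadjusted p under 0.05, with a median of -0.24 that was -0.06 with the length trend removed. Ccl5, a chemokine of activated T and NK cells, had 36.8, 29.8 and 38.5 CPM in DE+PFD+RIC and 144, 56.7 and 80.7 CPM in DE (log2 -1.29 ± 0.41), and Nkg7, a granule protein, had 7.16, 6.61 and 10.4 CPM in DE+PFD+RIC and 25.2, 16.6 and 13.4 CPM in DE (log2 -1.16 ± 0.42). Neither overlapped between the groups. Of 19 genes of MHC class II presentation and dendritic cells, 15 lay lower, 6 at an unadjusted p under 0.05, with a median of -0.41, and -0.12 without DE 1. H2-Aa, a chain of the class II molecule, had 498, 462 and 542 CPM in DE+PFD+RIC and 1020, 700 and 731 CPM in DE (log2 -0.82 ± 0.30), and Siglech, a receptor of plasmacytoid dendritic cells, had 2.24, 3.90 and 4.33 CPM in DE+PFD+RIC and 13.6, 5.22 and 10.4 CPM in DE (log2 -1.50 ± 0.44). Fscn1, an actin bundler of migrating dendritic cells, had 17.1, 17.5 and 19.2 CPM in DE+PFD+RIC and 99.0, 10.2 and 46.1 CPM in DE, where DE 2 was the lowest of the 6 libraries.

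Markers of fat and mast cells moved with the lymphoid genes in DE 1 and DE 3. All 15 adipocyte genes lay lower in DE+PFD+RIC, 6 at an unadjusted p under 0.05, with a median of -1.80, and -0.55 without DE 1. Their summed level was 992, 442 and 593 CPM in DE+PFD+RIC, against 4571, 572 and 1324 in DE and 336, 475 and 619.7 in C, so that DE 2 lay inside the DE+PFD+RIC range. Ucp1, the uncoupling protein of brown fat, had 0.604, 0 and 0.360 CPM in DE+PFD+RIC and 132, 1.34 and 26.5 CPM in DE, and Cidea, a lipid droplet protein of brown fat, had 6.64, 2.27 and 3.48 CPM in DE+PFD+RIC and 194, 4.48 and 30.8 CPM in DE. Fabp4, a fatty acid carrier of fat cells and capillaries, had 178, 37.1 and 54.2 CPM in DE+PFD+RIC and 881, 61.4 and 226 CPM in DE. The part of this in the lymphoid result was not tested.

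Of 10 mast cell, basophil and eosinophil genes, 8 lay lower and 4 did so at an unadjusted p under 0.05 (median -1.65, and -1.17 without DE 1). Cma1, a mast cell chymase, had 3.36, 0.818 and 2.52 CPM in DE+PFD+RIC and 21.6, 4.03 and 8.79 CPM in DE (log2 -2.27 ± 0.70), with no overlap. Tpsb2, a tryptase, had 2.85, 0.189 and 1.68 CPM in DE+PFD+RIC and 24.5, 2.69 and 9.67 CPM in DE (log2 -2.74 ± 1.04). Liver-type transcripts were near 0 in both groups: Apoa1 had 0, 0.0629 and 0 CPM in DE+PFD+RIC and 1.09, 0.448 and 2.29 CPM in DE, and Alb 0.604, 0.503 and 1.56 CPM in DE+PFD+RIC and 3.40, 1.64 and 4.57 CPM in DE.

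Resident lung macrophages showed no common shift. Of 19 alveolar macrophage genes 8 lay higher and 11 lower, with a median of -0.19, and 0.05 with the length trend removed. It was 0.07 without RIC+DE+PFD 1. Fabp4, which fat cells also use and whose values stand above, lay lowest in the list (log2 -2.53 ± 1.14). Marco, a scavenger receptor for particles, had 23.4, 41.1 and 14.3 CPM in DE+PFD+RIC and 198, 24.0 and 73.0 CPM in DE (log2 -2.32 ± 0.64, adjusted p = 0.529). Marco was high in DE 1 and DE 3 and at the DE+PFD+RIC level in DE 2. C1qa, a complement chain of interstitial macrophages, had 51.8, 51.2 and 38.6 CPM in DE+PFD+RIC and 133, 52.4 and 77.2 CPM in DE (log2 -0.92 ± 0.34, and -0.48 with the length trend removed). Its list of 20 monocyte and interstitial macrophage genes had a median of -0.14, with 5 lower at an unadjusted p under 0.05, but with the length trend removed the median was 0.11 and 2 were.

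Inflammatory cytokines had a median of -0.02 over 24 genes, with 12 higher and 12 lower. Il1b, the gene of IL-1beta, had 12.9, 13.5 and 39.9 CPM in DE+PFD+RIC and 35.1, 25.2 and 25.1 CPM in DE (log2 -0.14 ± 0.48), and Il6 had 0.431, 0.755 and 0.240 CPM in DE+PFD+RIC and 0.986, 0.597 and 1.41 CPM in DE. Both overlapped between the groups. Ccl4, a chemokine for monocytes and T cells, had 1.29, 0.881 and 0.481 CPM in DE+PFD+RIC and 3.07, 2.84 and 1.58 CPM in DE (log2 -1.84 ± 0.58), without overlap. Of 14 genes of type 2 immunity, 12 lay lower, 4 at an unadjusted p under 0.05, with a median of -0.95, -0.53 with the length trend removed, and -0.41 without the batch term. The eotaxin Ccl11 had 6.47, 3.40 and 5.17 CPM in DE+PFD+RIC and 9.75, 8.21 and 6.33 CPM in DE (log2 -1.03 ± 0.37). Retnla, a product of alternatively activated macrophages, had 49.5, 59.5 and 25.1 CPM in DE+PFD+RIC and 47.1, 57.5 and 45.2 CPM in DE, with overlap, and its fitted value of log2 -0.95 ± 0.43 was -0.15 without the batch term.

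Interferon-induced genes had small median differences from DE, with most antiviral and MHC class I genes lower. The 18 GTPases and interferon-gamma chemokines tested had a median of -0.10 with 7 higher and 11 lower, and the 25 antiviral genes one of -0.26 with 5 higher and 20 lower (0.02 in October alone). Isg15, a ubiquitin-like antiviral protein, had 15.4, 7.87 and 10.9 CPM in DE+PFD+RIC and 22.8, 16.7 and 21.4 CPM in DE (log2 -1.07 ± 0.45), with no overlap. B2m, the light chain of MHC class I, had 1263, 948 and 1084 CPM in DE+PFD+RIC and 1754, 1713 and 1576 CPM in DE (log2 -0.76 ± 0.31), again with no overlap, and was at -0.35 with the length trend removed. Of the 17 MHC class I presentation genes, B2m among them, 13 lay lower, with a median of -0.19 (-0.11 with the length trend removed). The groups did not overlap for 7 of these 17, all lower, and for 6 of the antiviral genes on the lower side and 1 on the higher. Cxcl9, a chemokine induced by interferon-gamma, had 1.29, 1.20 and 1.80 CPM in DE+PFD+RIC and 16.1, 1.19 and 3.52 CPM in DE, with DE 1 far above the rest.

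Matrix genes lay higher in DE+PFD+RIC than in DE. Of 20 fibrillar collagen and matrix genes, 18 had a fold change above 0 (48.9% of all genes tested did), 4 at an unadjusted p under 0.05, and the median log2 fold change was 0.57. With the length trend removed the median was 0.37, with 15 genes above 0, and in October alone it was 0.40. It was 0.35 without RIC+DE+PFD 1 and 0.37 without DE 2. Fn1, the gene of fibronectin, had 362, 431 and 448 CPM in DE+PFD+RIC, against 266, 216 and 280 in DE and 246, 324 and 326 in C (log2 0.91 ± 0.34, adjusted p = 0.529). Hspg2, the basement membrane proteoglycan perlecan, had 206, 292 and 259.9 CPM in DE+PFD+RIC and 200.5, 126 and 197 CPM in DE (log2 0.84 ± 0.27). Neither gene overlapped between the groups.

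The fibrillar collagens overlapped between the groups. Col1a1, one of the chains of type I collagen, had 241, 385 and 362 CPM in DE+PFD+RIC, against 313, 180.2 and 351 in DE and 277, 386 and 371 in C (log2 0.52 ± 0.42, adjusted p = 0.597). Col3a1, the chain of type III collagen, had 363, 598 and 384 CPM in DE+PFD+RIC and 496, 271 and 518 CPM in DE (log2 0.08 ± 0.39), and changed sign with the length trend removed (-0.21). Col18a1, the source of endostatin, had 58.9, 68.8 and 77.0 CPM in DE+PFD+RIC and 53.7, 38.5 and 58.4 CPM in DE (log2 0.69 ± 0.31) and did not overlap, by a narrow margin. In an exact permutation test 3 libraries against 3 cannot give a p below 0.1, so no such test could call a single gene.

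Matrix binding and protease genes held both directions. Ltbp4, which stores latent TGF-beta on elastic fibres, had 973, 836 and 1029 CPM in DE+PFD+RIC and 569, 516 and 682 CPM in DE (log2 1.16 ± 0.42, adjusted p = 0.529). Tnxb, the matrix protein tenascin-X, had 108, 184 and 222 CPM in DE+PFD+RIC and 94.0, 85.1 and 104 CPM in DE (log2 1.17 ± 0.42). Mfap5, a microfibril protein, lay on the other side, with 24.7, 33.4 and 32.1 CPM in DE+PFD+RIC and 53.9, 43.4 and 44.8 CPM in DE (log2 -0.69 ± 0.28). None of the 3 overlapped between the groups, but each was named for a small p in its list. The list of 21 elastic fibre and crosslinking genes, which holds Ltbp4 and Mfap5, had a median of 0.20 (0.08 with the length trend removed and 0.01 in October alone). Of these 21, 2 lay higher and 3 lower with no overlap. Tnxb lay highest in another list, of 14 matricellular genes, which had a median of 0.01 with 7 higher and 7 lower. Timp1, an inhibitor of matrix proteases that is high in fibrotic lung, had 4.49, 8.05 and 3.73 CPM in DE+PFD+RIC, against 8.21, 8.96 and 10.4 in DE and 6.08, 7.37 and 10.5 in C (log2 -1.03 ± 0.41, and -0.56 with the length trend removed). Mmp28, an epithelial metalloprotease, had 38.0, 51.6 and 37.1 CPM in DE+PFD+RIC and 20.8, 21.9 and 20.6 CPM in DE (log2 0.98 ± 0.34). All 3 DE+PFD+RIC libraries lay below DE for Timp1 and above it for Mmp28. Their list of 24 matrix proteases and inhibitors had a median of 0.12, with 15 higher and 9 lower.

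Most genes of the TGF-beta pathway had fold changes above 0, among them genes of Smads, the proteins that carry the signal from receptor to nucleus. Of 25 ligands, receptors, Smads and regulators, 20 lay above 0, 6 at an unadjusted p under 0.05, with a median of 0.28, 0.20 with the length trend removed and 0.27 in October alone. The groups did not overlap for 13 of the 25, all higher (15.4% of all genes tested lay higher with no overlap). Tgfb1, the ligand, had 86.6, 89.2 and 113 CPM in DE+PFD+RIC and 143, 97.6 and 119 CPM in DE (log2 0.04 ± 0.22), with overlap, and its sign turned in several alternatives, at -0.31 without the batch term. Smad4, the common partner of the receptor-regulated Smads, had 79.5, 87.3 and 74.0 CPM in DE+PFD+RIC, against 50.4, 50.6 and 50.5 in DE and 75.0, 60.7 and 59.7 in C (log2 0.56 ± 0.15, adjusted p = 0.529). The 3 DE libraries were almost equal and lay below the 3 libraries of each of the other 2 groups.

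The inhibitory Smads were on the same side. Smad7, which TGF-beta induces and which blocks its receptor, had 120.4, 95.4 and 91.7 CPM in DE+PFD+RIC and 67.0, 66.7 and 71.7 CPM in DE (log2 0.73 ± 0.27), and Smad6, the inhibitor in the BMP branch, had 312, 237 and 247 CPM in DE+PFD+RIC and 199.9, 201 and 194 CPM in DE (log2 0.77 ± 0.31). Neither overlapped. In October alone Smad7 was at 0.40 and Smad6 at 0.30, and Smad6 was at 0.42 without the batch term. Ccn2, a target gene of TGF-beta and YAP, had 234, 126 and 179 CPM in DE+PFD+RIC and 123, 173 and 189 CPM in DE (log2 0.27 ± 0.33), with overlap. Acta2, the smooth muscle actin of myofibroblasts, had 300, 291 and 284 CPM in DE+PFD+RIC, against 479, 376 and 464 in DE and 126, 435 and 463 in C (log2 -0.50 ± 0.40, adjusted p = 0.597), and Tagln, a smooth muscle actin binder, had 255, 211 and 217 CPM in DE+PFD+RIC and 320.2, 379 and 384 CPM in DE (log2 -0.60 ± 0.31). Both contractile genes lay below every DE library in all 3 DE+PFD+RIC libraries, while the list of 15 contractile genes had a median of -0.15, with 7 higher and 8 lower. With the length trend removed Acta2 was at log2 -0.25 and Tagln at -0.33.

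**Figure D3:**
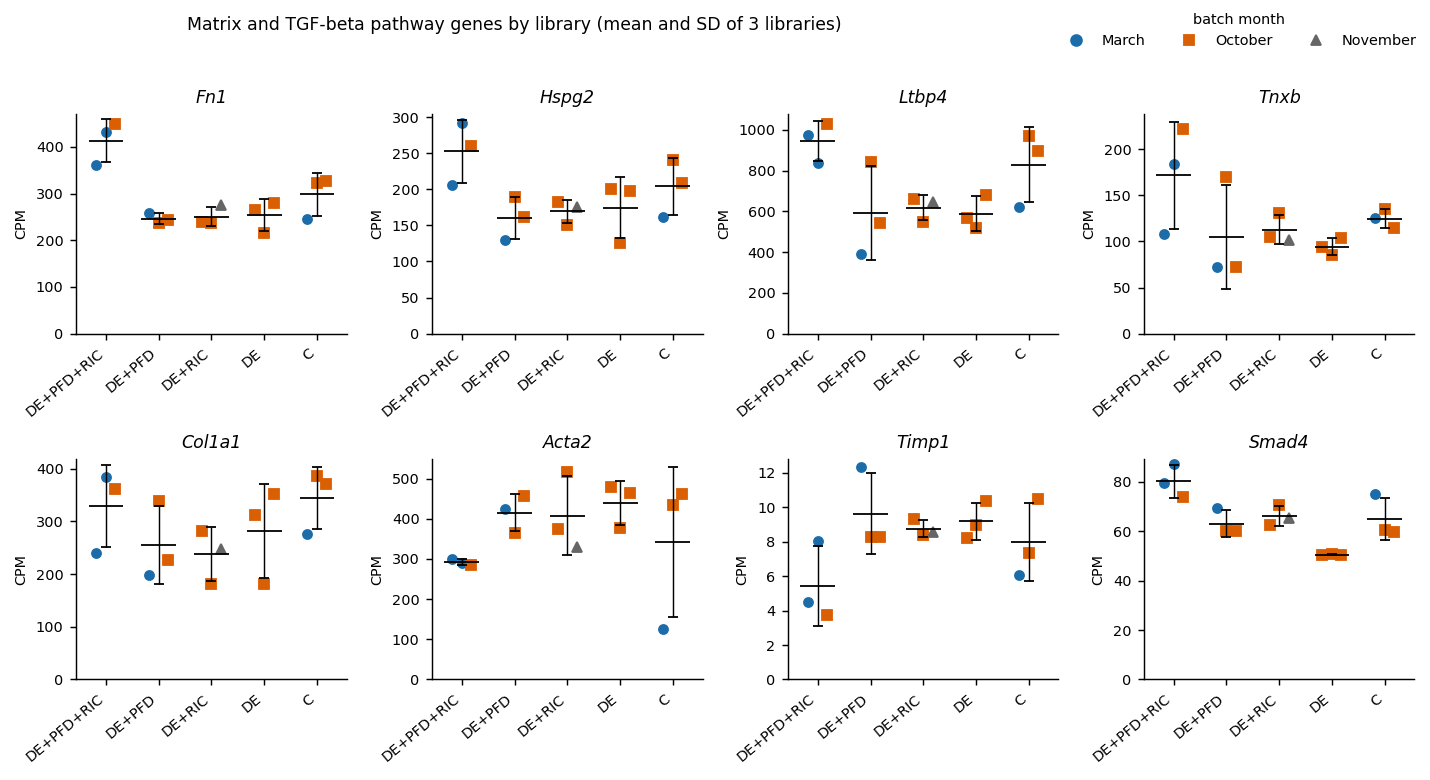
Level of 8 matrix, contractile and TGF-beta pathway genes (y axis, CPM from 0) in the libraries of DE+PFD+RIC, DE+PFD, DE+RIC, DE and C (x axis), 1 point per library with symbols for the batch month, a line at the mean and bars of 1 SD over 3 libraries. Fn1, Hspg2, Ltbp4, Tnxb and Smad4 lay higher in each DE+PFD+RIC library than in any DE library, Acta2 and Timp1 lower, and Col1a1 overlapped.

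Vessel and mesenchymal cell genes held both directions. Of 19 vascular endothelial genes 12 lay above 0, 1 of them at an unadjusted p under 0.05, with a median of 0.30 and 0.21 with the length trend removed. Ace, angiotensin-converting enzyme of capillary endothelium, had 1100, 1145 and 1160 CPM in DE+PFD+RIC, against 596, 692 and 731 in DE and 986, 995 and 906 in C (log2 0.93 ± 0.36, adjusted p = 0.529). Vwf, von Willebrand factor, had 711, 895 and 836 CPM in DE+PFD+RIC and 414, 434 and 544 CPM in DE (log2 0.84 ± 0.40). Emcn, an endothelial sialomucin, lay on the other side, with 50.8, 34.5 and 54.4 CPM in DE+PFD+RIC and 69.5, 91.4 and 81.6 CPM in DE (log2 -0.75 ± 0.40). The groups did not overlap for any of the 3. Ace is counted in the list of conditioning mediators and not among the 19 vascular endothelial genes. Epas1, the hypoxia-inducible factor of endothelium, had 3402, 3165 and 2937 CPM in DE+PFD+RIC and 1671, 2009 and 2089 CPM in DE (log2 0.72 ± 0.35), but the 22 hypoxia response genes had a median of 0.10, with 12 higher and 10 lower. Among fibroblast markers Pdgfra had 285, 293 and 241 CPM in DE+PFD+RIC and 146, 219 and 207 CPM in DE (log2 0.45 ± 0.29), with no overlap, while 10 of the 18 lung fibroblast genes lay above 0, 1 of them at an unadjusted p under 0.05. The fibroblast median was 0.19, 0.06 without the batch term and -0.05 in October alone.

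Short, abundant housekeeping transcripts lay lower. All 30 cytosolic ribosomal protein genes had a fold change below 0, 1 of them at an unadjusted p under 0.05, with a median of -0.73, and -0.44 with the length trend removed. All 22 tested nuclear genes of oxidative phosphorylation lay lower, 11 at an unadjusted p under 0.05 (median -0.75, and -0.55 with the length trend removed). The 10 mitochondrially encoded mRNAs tested had a median of -0.98, and -0.60 with the length trend removed. Each of these medians moved toward 0 with the trend removed, and without RIC+DE+PFD 1 that of the ribosomal proteins was -0.39 and that of oxidative phosphorylation -0.48. Uqcrc2, a core protein of respiratory complex III, had 114, 94.95 and 97.0 CPM in DE+PFD+RIC and 173, 140.3 and 129 CPM in DE (log2 -0.73 ± 0.26, and -0.56 with the trend removed), and Rps28 had 277, 184 and 296 CPM in DE+PFD+RIC and 493, 486 and 417 CPM in DE (log2 -0.86 ± 0.42). The mitochondrial gene mt-Nd2, of complex I, had 1905, 1402 and 1393 CPM in DE+PFD+RIC, against 3520, 2729 and 2304 in DE and 2326, 1388 and 1642 in C (log2 -1.25 ± 0.45). No DE+PFD+RIC library reached a DE library for these 3 genes, and C lay nearer to DE+PFD+RIC for mt-Nd2.

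Epithelial and exhaust response genes held both directions. Over 17 alveolar type 2 and surfactant genes the median was -0.05, over 15 alveolar type 1 genes -0.14, and over 15 club and secretory genes -0.28 (0.01 with the length trend removed, 0.15 without DE 1 and 0.14 without RIC+DE+PFD 1). Muc5b, an airway mucin, had 82.5, 149 and 71.1 CPM in DE+PFD+RIC and 51.4, 46.9 and 43.1 CPM in DE (log2 1.21 ± 0.52), with no overlap. Cyp1a1, the enzyme induced by polycyclic aromatic hydrocarbons through the AHR receptor, had 8.63, 6.04 and 3.36 CPM in DE+PFD+RIC and 8.43, 7.76 and 8.61 CPM in DE, with overlap. The fit gave Cyp1a1 log2 -2.48 ± 1.39, and -0.44 without the batch term, and the March libraries of C and DE+PFD held 153 and 294 CPM. Cyp1b1, another target of that receptor, had 9.32, 14.1 and 8.29 CPM in DE+PFD+RIC and 25.9, 11.3 and 15.1 CPM in DE (log2 -1.29 ± 0.41, adjusted p = 0.529, and -1.46 with the length trend removed and -0.72 without the batch term), also with overlap. The 9 AHR pathway genes tested had a median of -0.01, with 4 higher and 5 lower. Of 31 NRF2 and antioxidant genes 25 lay lower, 2 at an unadjusted p under 0.05 (median -0.36, and -0.19 with the length trend removed). Taldo1, an enzyme of the pentose phosphate pathway, had 157, 132 and 166 CPM in DE+PFD+RIC and 259.9, 239 and 222 CPM in DE (log2 -0.68 ± 0.26), and Hmox1, heme oxygenase, had 80.3, 50.3 and 34.5 CPM in DE+PFD+RIC and 48.5, 45.5 and 65.0 CPM in DE (log2 -0.13 ± 0.26). Taldo1 did not overlap between the groups and Hmox1 did.

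Stress, clock and growth lists were uneven between libraries. Of 21 heat shock chaperones 17 lay above 0 (median 0.39), but the median was -0.61 in October alone. Bag3, a co-chaperone, had 228, 116 and 93.2 CPM in DE+PFD+RIC and 68.5, 62.1 and 99.8 CPM in DE, with DE+PFD+RIC 1 the highest and library 3 inside the DE range. Of 19 circadian clock genes 18 lay above 0, none at an unadjusted p under 0.05 (median 0.40, and 0.57 in October alone). The clock repressor Cry1 had 55.0, 24.5 and 12.5 CPM in DE+PFD+RIC, against 11.7, 8.21 and 9.67 in DE and 36.1, 20.2 and 16.9 in C (log2 1.07 ± 0.52), and the labels give no hour of tissue collection. Of 26 proliferation genes 24 lay lower, 4 at an unadjusted p under 0.05, with a median of -0.38. Eno1, a glycolytic enzyme, had 167, 153 and 174 CPM in DE+PFD+RIC and 393, 215 and 242 CPM in DE (log2 -0.80 ± 0.25), and Mt2, a metallothionein, had 20.4, 8.81 and 8.17 CPM in DE+PFD+RIC and 20.5, 29.9 and 25.5 CPM in DE (log2 -1.29 ± 0.41). Both lay below DE in every DE+PFD+RIC library.

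The lists of genes tied to ischemic conditioning and to cholesterol had small median differences. The 25 conditioning mediators tested, among them receptors for bradykinin and adenosine, had a median of 0.08, with 16 higher and 9 lower. Their fold changes ran from log2 -0.64 to 0.93, the highest being that of Ace, whose values stand above with the vessel genes. Bdkrb2, the bradykinin B2 receptor, had 16.7, 13.2 and 13.5 CPM in DE+PFD+RIC and 9.31, 6.27 and 10.0 CPM in DE (log2 0.72 ± 0.41, adjusted p = 0.532). The groups did not overlap for Bdkrb2. The 19 genes of cholesterol synthesis and uptake had a median of 0.13.

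**Figure D4:**
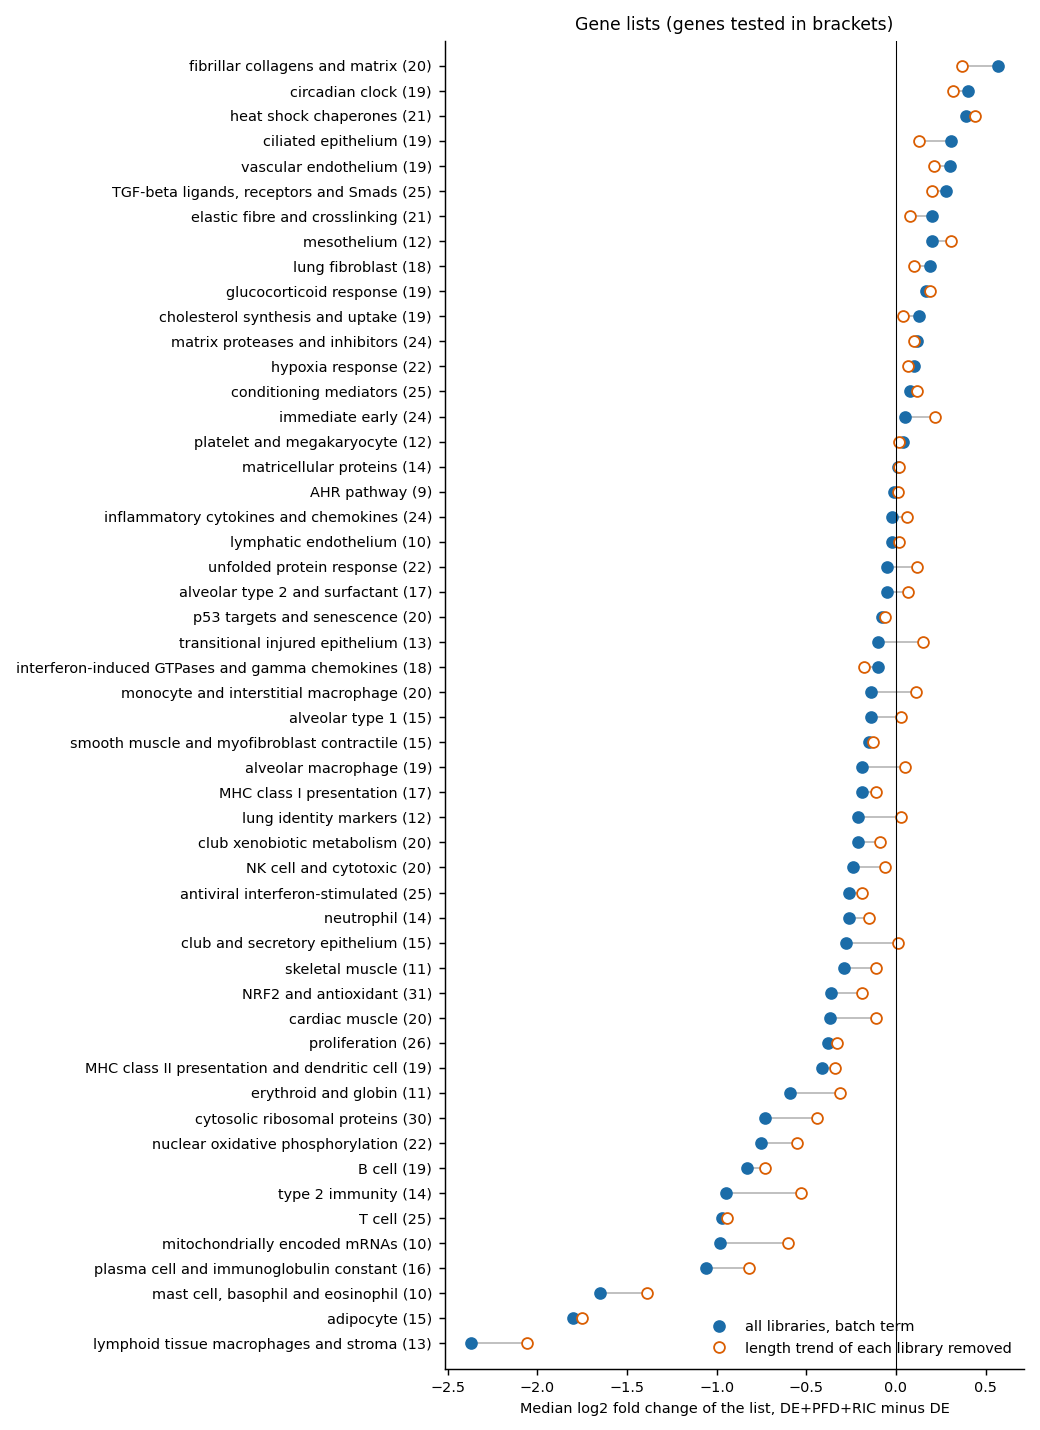
Median log2 fold change of DE+PFD+RIC minus DE (x axis) for the gene lists (y axis, number of genes tested in brackets), as fitted over all libraries (filled points) and with the length trend of each library removed (open points). Of the 53 lists, that of pancreas, liver, thymus and other organ markers (median -0.57) is not drawn. Lymphoid tissue macrophages and stroma lay lowest at -2.37 and fibrillar collagens and matrix highest at 0.57.

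The 12 higher genes named by rank came from several functions. The groups did not overlap in any of the 12 (15.4% of all genes tested lay higher with no overlap). That only describes these 12 genes, since they were named by this same difference. Their log2 fold changes ran from 0.56 to 1.84, with adjusted p-values of 0.463 to 0.529. Soga1 had 37.9, 81.2 and 48.8 CPM in DE+PFD+RIC, against 17.5, 13.3 and 14.1 in DE and 32.0, 28.0 and 26.7 in C (log2 1.78 ± 0.43). It was the only gene called both in October alone (adjusted p = 0.014) and by limma with quality weights (adjusted p = 0.0362). Pign, an enzyme of GPI anchor synthesis, had 5.35, 8.24 and 3.60 CPM in DE+PFD+RIC and 0.986, 1.64 and 1.05 CPM in DE (log2 1.84 ± 0.40, adjusted p = 0.463), and was called without the batch term. Lrp1, an endocytic receptor for proteases and matrix proteins, had 426, 590 and 580.3 CPM in DE+PFD+RIC, against 282, 200.2 and 299.7 in DE (log2 1.35 ± 0.37). Fzd7, a Wnt receptor, had 52.96, 47.4 and 46.3 CPM in DE+PFD+RIC, against 20.3, 22.7 and 26.7 in DE and 45.9, 34.7 and 35.9 in C (log2 1.05 ± 0.26). For Fzd7 and 8 others of the 12 the highest DE library lay below all 3 C libraries. The 12 were named for low values in these same DE libraries, so this count only describes them. Its share over all genes tested was not taken.

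Others of the 12 spanned low and moderate levels. Cmklr1, the receptor for chemerin, had 83.9, 114 and 101 CPM in DE+PFD+RIC and 47.3, 47.2 and 47.3 CPM in DE (log2 1.05 ± 0.27). Nuak1, a kinase related to AMPK, had 45.3, 38.3 and 48.2 CPM in DE+PFD+RIC and 27.3, 21.6 and 19.0 CPM in DE (log2 0.98 ± 0.24). Cobl, an actin nucleator, had 60.9, 71.4 and 58.6 CPM in DE+PFD+RIC and 29.2, 34.3 and 43.1 CPM in DE (log2 0.83 ± 0.23). Of these, Cmklr1 was nearly constant over the 3 DE libraries. Colgalt2, a collagen galactosyltransferase, was higher by log2 0.72 ± 0.19, Trim65, a ubiquitin ligase, by log2 1.77 ± 0.49, Myo15b, an unconventional myosin, by log2 1.74 ± 0.46 and D5Ertd579e by log2 1.23 ± 0.34. With the length trend removed these 12 lay between 0.56 and 1.61.

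Lymphoid genes also lay below DE in the single treatments. DE+PFD+RIC, DE+PFD and DE+RIC are each set against the same 3 DE libraries, so their values are given side by side and are not independent. The 12 lower genes lay between log2 -4.53 and -1.39 in DE+PFD+RIC minus DE, between -4.40 and -0.95 in DE+PFD minus DE and between -4.49 and -1.23 in DE+RIC minus DE. Cd209b had 2.27, 0.535 and 2.07 CPM in DE+PFD and 2.11, 1.12 and 1.77 CPM in DE+RIC. The list of lymphoid tissue macrophages and stroma had a median of -2.37 in DE+PFD+RIC minus DE, -1.43 in DE+PFD minus DE and -1.85 in DE+RIC minus DE.

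The combined treatment was also tested against each single treatment. edgeR called 0 of 17490 genes in DE+PFD+RIC minus DE+PFD (0%). At an unadjusted p under 0.05, 372 lay higher there (2.13%) and 365 lower (2.09%). DESeq2, without edgeR's filter on low counts, called 8, of which 1 was among the 17490. With quality weights limma called 207, 123 higher and 84 lower. In DE+PFD+RIC minus DE+RIC edgeR called 0 (0%), with 485 higher (2.77%) and 376 lower (2.15%) at an unadjusted p under 0.05. DESeq2 called 2 there, both among the 17490, and limma 0. The interaction, the effect of perconditioning with pirfenidone minus its effect without, gave 0 calls (0%), with 262 genes above 0 (1.5%) and 205 below it (1.17%) at an unadjusted p under 0.05. DESeq2 called 6, of which 1 was among the 17490, and limma 0. DE+PFD+RIC minus DE+RIC and the interaction take DE+RIC from its libraries 1 and 2, as DE+RIC 3 has a batch date of its own. With DE+RIC 3 put in the October batch, edgeR also called 0 in each. The smallest adjusted p was then 0.401 for DE+PFD+RIC minus DE+RIC and 0.231 for the interaction, against 0.752 and 0.938 in the main fit.

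Interferon-induced genes stood furthest from DE+PFD. The 18 GTPases and interferon-gamma chemokines had a median of -1.48 in DE+PFD+RIC minus DE+PFD, 13 of them lower at an unadjusted p under 0.05 (2.09% of all genes tested were). Gbp8, a guanylate-binding protein of host defence, had 31.4, 29.6 and 30.8 CPM in DE+PFD+RIC, against 89.4, 114 and 42.2 CPM for DE+PFD and 51.5, 38.5 and 44.5 CPM for DE (log2 -1.37 ± 0.39 against DE+PFD, adjusted p = 0.905). DE+PFD 1 and 2 were high and DE+PFD 3 lay nearer to the other groups. Of 17 MHC class I presentation genes 10 lay lower at an unadjusted p under 0.05, with a median of -0.60, and of 25 antiviral genes 13 did, with a median of -0.63. Against DE+RIC the GTPase list had a median of -0.09, with 0 genes at an unadjusted p under 0.05.

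Matrix genes lay higher in DE+PFD+RIC than in either single treatment as fitted, with the length trend left in. The 20 fibrillar collagen and matrix genes had a median of 0.45 against DE+PFD, with 2 higher at an unadjusted p under 0.05, and of 0.58 against DE+RIC, with 6 higher (2.77% of all genes tested were). Fn1 had 362, 431 and 448 CPM in DE+PFD+RIC, against 259, 237 and 242 CPM for DE+PFD and 239, 238 and 275 CPM for DE+RIC, so no DE+PFD or DE+RIC library reached it. Against DE the same list had a median of 0.10 in DE+PFD and -0.09 in DE+RIC. Retnla was also apart from DE+RIC, with 49.5, 59.5 and 25.1 CPM in DE+PFD+RIC and 109, 163 and 84.8 CPM in DE+RIC. The median interaction was 0.47 for the matrix list and -1.44 for the GTPase list, and no gene of either passed the test. Matrix genes are long, with a median of 7242.5 bases. Libraries of DE+PFD+RIC had a length rho of 0.190, 0.458 and 0.294. Those of DE+PFD had 0.217, -0.019 and -0.248, while DE+RIC libraries had -0.201, -0.151 and 0.103. Matrix medians against the single treatments, and the interaction, are not given with this trend removed. Its part in them was not tested.

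**Figure D5:**
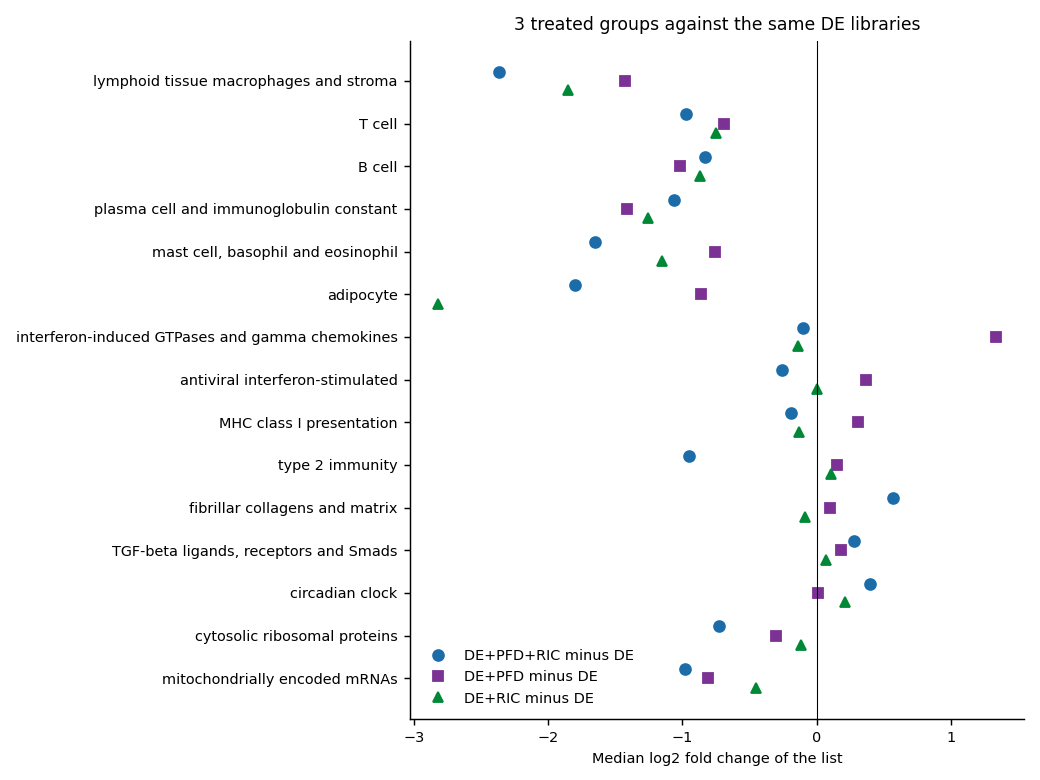
Median log2 fold change (x axis) of 15 gene lists (y axis) in DE+PFD+RIC, DE+PFD and DE+RIC, each minus the same 3 DE libraries. The lymphoid tissue list lay at -2.37, -1.43 and -1.85 in that order of groups, and the interferon-induced GTPases at -0.10, 1.34 and -0.14.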

How the data were processed

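Poly(A) RNA of 24 lung samples was sequenced with strand kept, per the labels' protocols. The submitters' processing notes name FastQC 0.12.1, fastp 0.23.4, STAR 2.7.11b, the genome GRCm39 and featureCounts. The authors deposited whole-number read counts for 78275 genes. These sources give no annotation release, strand setting or rule for multiply matching reads, so genes with near-identical copies, overlapping genes and antisense genes have uncertain counts. Symbols (51486 genes) and exon lengths were matched by gene identifier from an annotation of GRCm38, with no coordinates taken from it.

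The test was edgeR 4.0.16 in R 4.3.3 (its filter on low counts, TMM scaling, quasi-likelihood fit with batch and group terms over all 24 libraries), and p-values were adjusted over the 17490 genes tested. The code was checked on simulated counts. Total counts ran from 3906807 to 18494156, and no 2 libraries of a group were copies. CPM uses TMM-scaled totals. Each ± is a standard error of the fitted log2 fold change, taken as its absolute value over the square root of the test's F. It rests on the batch term and the spread estimated over all 24 libraries, not on the libraries printed beside it alone. The batch is the label's date, whose meaning the labels do not say. Members, lists and tests were chosen with earlier results of these data known. Named were the called genes, filled to 12 in each direction by smallest p at a mean of at least 1 CPM (predicted genes, pseudogenes and receptor segments left out), 3 genes per list and 20 readout genes, of which a part is printed. The 53 lists are described by counts and medians, with no list test.

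Alternatives were DESeq2 1.42.0, its size factors, other filters, batch treatments and library sets, the replicate number as a block, limma 3.58.1 with quality weights, each of the 6 libraries left out, and, chosen after seeing the data, removal of each library's length trend by a smooth curve (span 0.3) in the offsets. Same-numbered libraries of the 2 groups did not deviate together, so the numbers were not taken as pairs. Results for a few genes are not reported here.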

Additional observations from a re-analysis of the deposited data

How the results depend on the processing

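The count of genes called between DE+PFD+RIC and DE was 0 in the fit reported and in most alternatives. It was 14 with DESeq2, 306 with no filter on low counts, 9 with no batch term, 1 in October libraries alone and 4 with limma quality weights. Leaving out 1 library in turn gave 0 to 19, the 19 without DE 2. For DE+PFD+RIC minus DE+PFD it was 8 with DESeq2, 131 with no filter and 207 with limma quality weights. For DE+PFD+RIC minus DE+RIC it was 2 with DESeq2, 71 with no filter and 1 in October alone. For the interaction it was 6 with DESeq2, 164 with no filter and 1 in October alone, and 0 to 2 with 1 library left out. The cause was not tested.

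With the replicate number as a block, 0 genes were called with the batch term (540 higher and 342 lower at an unadjusted p under 0.05) and 0 without it. The correlations of same-numbered libraries were -0.204, -0.039 and -0.183, so this block is not a pairing.

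5 of the genes named changed sign (ranges with libraries left out cover each of the 6 in turn, RIC+DE+PFD 1 of another group, and RIC+DE+PFD 1 with DE 1). Col3a1 was at log2 -0.17 in October alone, -0.16 in the 6 libraries with a batch term, -0.04 with limma, -0.05 without RIC+DE+PFD 1, -0.21 with the length trend removed, and -0.17 to 0.26 with libraries left out. Tgfb1 was at -0.31 without the batch term, -0.10 in October alone, -0.32 and -0.08 in the 6 libraries without and with it, -0.34 with the replicate block and no batch term, -0.01 with limma, -0.05 without RIC+DE+PFD 1, -0.08 with the length trend removed, and -0.09 to 0.18 with libraries left out. Ccn2 was at -0.15 with limma and -0.07 without RIC+DE+PFD 1 and DE 1, and -0.07 to 0.41 with libraries left out. Hmox1 was at 0.06 without the batch term, 0.05 in the 6 libraries without it, 0.06 with the replicate block and no batch term, 0.14 with the length trend removed, and -0.41 to 0.20 with libraries left out. Il1b was at 0.46 in October alone, 0.48 in the 6 libraries with a batch term, 0.13 with the replicate block and batch term, 0.06 with limma, 0.05 without RIC+DE+PFD 1, 0.24 without that library and DE 1, 0.14 with the length trend removed, and -0.89 to 0.24 with libraries left out.

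Precision is limited by 3 libraries a group, with no March library in DE, and by low counts for Ccl19, Il22ra2, Apoa1 and Il6.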
